A study of Bos taurus with 15 samples.

Results

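Of the 27607 cattle gene IDs counted, 81 moved the same way when bovine retinal endothelial cells were treated with succinylacetone and when they were given an siRNA against FLVCR2. In 59 the transcript level was higher with both treatments, and in 22 it was lower with both. A gene was taken into this set when its mean was at least 5 CPM (reads of a gene, scaled so that every library has the same total) in all 4 groups of libraries, when the log2 ratio of the treated to the control mean was at least 0.2 in size and of the same sign with both treatments, and when no treated library overlapped a control library in either experiment. The level limit was met by 9727 genes, so the genes raised by both treatments made up 0.607% of these and the genes lowered by both 0.226%. These limits use the ratios of both experiments, so the ratios below describe the genes that were chosen and are given without a test.

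The cells line the blood vessels of the retina, and polyA RNA was sequenced in 2 experiments, each with its own control. The first compared 4 succinylacetone libraries with 4 libraries labelled as control, for which the labels do not say whether a vehicle was given. The second compared 3 FLVCR2 siRNA libraries with 4 that received a scrambled siRNA. The title of the study asks about the link of FLVCR2 with heme in the cell and with retinal angiogenesis. The treatment labels of FLVCR2 siRNA replicates 2 and 3 read siFLVCR3 and siFLVCR4, and they were grouped by their titles. Nothing in the labels gives a dose, a time or the age of an animal, or says whether the replicates were separate cultures. Library totals lay between 18842196 and 34754170 counts.

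Heme is built in a chain of steps shared between mitochondria and cytosol, and the enzyme aminolevulinate dehydratase takes an early step in the cytosol. Succinylacetone inhibits that enzyme and so blocks heme synthesis. FLVCR2 is a membrane transporter of the major facilitator superfamily, described as a carrier of heme and, in later work, of choline, and it is known for its part in the growth of blood vessels in the brain. Heme is the cofactor of cytochromes and other proteins, and heme also binds regulators of transcription and translation. The tables give Ensembl IDs without gene names, and 0 of these IDs matched the RefSeq gene table for the ARS-UCD2.0 assembly. The members are therefore described by ID or rank, no role or position is given for them, and the level of FLVCR2, the gene lists and the markers of endothelial and other cell types were not analysed here. In bulk libraries of this kind, fewer cells of a type and less RNA per cell cannot be told apart.

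The changes of the 59 genes raised by both treatments were modest. Their median log2 ratio was 0.38 with succinylacetone (1.30-fold), with a range of 0.21 to 0.88, and 0.31 with FLVCR2 siRNA (1.24-fold), with a range of 0.20 to 0.79. Over all 9727 genes the medians were 0.017 and 0.011. No rise reached 2-fold with either treatment. With succinylacetone 13 of the 59 rose by at least 1.5-fold, and with the siRNA 4 did. The rises came from weakly and strongly expressed genes alike: when the 9727 genes were cut into 4 bins of the same size by mean level, 14, 16, 13 and 16 rises lay in the bins from the lowest to the highest. Their control means ran from 6.46 to 533 CPM, with a median of 34.6.

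The 22 genes lowered by both treatments included the strongest single changes of the set. Their median log2 ratio was -0.46 with succinylacetone and -0.28 with FLVCR2 siRNA, and the ranges were -2.27 to -0.22 and -1.06 to -0.21. Both extremes were also the lowest ratios among the 9727 genes: the strongest fall with succinylacetone and the strongest with the siRNA were members of this set, in different genes. Most falls lay at middle levels, with 4, 9, 7 and 2 genes in the bins from the lowest to the highest. The median control level was 23.6 CPM and the highest 765 CPM.

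**Figure D1:**
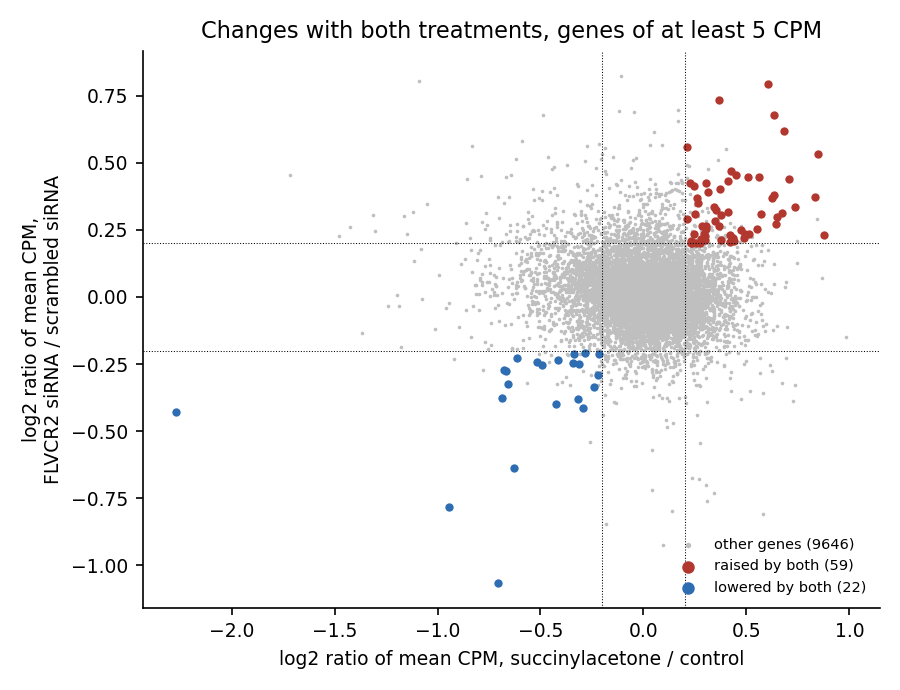
Each point is a gene that met the level limit of 5 CPM in all 4 groups, placed by its log2 ratio with succinylacetone (x axis) and with FLVCR2 siRNA (y axis), and dotted lines mark ratios of 0.2 in size. The 59 genes raised by both treatments (red) lie in the upper right, none past a ratio of 1, and the 22 lowered by both (blue) in the lower left, with 1 gene at -2.27 on the x axis.

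Members were ranked in each direction by the smaller of their 2 ratios in size. The first of the rises was ENSBTAG00000036078. Its level was 27.4, 25.5, 28.0 and 27.4 CPM in control replicates 1 to 4 and 43.9, 40.5, 42.3 and 41.2 CPM with succinylacetone. In the other experiment it was 37.5, 37.6, 34.5 and 39.4 CPM with scrambled siRNA and 56.9, 58.3 and 63.6 CPM with FLVCR2 siRNA. All 7 treated libraries lay clear of their own controls, by 1.45-fold at the narrowest point in each experiment. The fitted log2 fold changes were 0.62 (SE 0.0617) with succinylacetone and 0.66 (SE 0.0695) with the siRNA, from edgeR's quasi-likelihood model of each experiment. The changes were thus of like size, although the scrambled siRNA level was above the control level of the first experiment.

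ENSBTAG00000009868, the next of the rises, was expressed at a low level. It had 6.01, 7.67, 6.20 and 5.98 CPM in control and 10, 10.7, 11.7 and 9.06 CPM with succinylacetone. With scrambled siRNA it had 4.73, 5.69, 5.17 and 4.88 CPM, and with FLVCR2 siRNA 8.72, 7.72 and 7.16 CPM. Control replicate 2 was the highest control library and stood nearest the treated libraries, and the groups did not overlap. The fitted log2 fold changes were 0.67 (SE 0.121) and 0.61 (SE 0.131). Counts of this gene went down to 90 in a library, the lowest count of any rise.

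The gene at rank 3 of the rises had the largest siRNA ratio of any rise, 0.79. It went from 48.7, 46.3, 43.1 and 48.7 CPM with scrambled siRNA to 77.5, 77.7 and 87.5 CPM with FLVCR2 siRNA, and succinylacetone took its mean from 76.4 ± 4.27 to 116 ± 9.46 CPM (SD, n = 4 each). The FLVCR2 siRNA libraries therefore reached about the level of the control libraries of the other experiment. Rank 4 had ratios of 0.85 with succinylacetone and 0.53 with the siRNA. Ranks 5 and 6 had 0.45 and 0.51 with succinylacetone and 0.46 and 0.45 with the siRNA.

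Among the falls, ENSBTAG00000017280 ranked first. Its libraries held 90.9, 82.4, 87.7 and 92.4 CPM in control against 49.6, 43.4, 46.9 and 43.9 CPM with succinylacetone. They held 54.4, 56.9, 53.4 and 57.1 CPM with scrambled siRNA against 33.0, 33.1 and 30.7 CPM with FLVCR2 siRNA. No group overlapped its control, and the gap between the nearest libraries was 1.66-fold and 1.61-fold. The ratios of -0.94 and -0.78 correspond to 1.92-fold and 1.72-fold lower levels.

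ENSBTAG00000015582, the second fall, showed the strongest siRNA response of the set. It went from 219, 231, 238 and 245 CPM with scrambled siRNA to 109.9, 112 and 113 CPM with FLVCR2 siRNA, a 2.09-fold lower mean and a fitted log2 fold change of -1.08 (SE 0.0599). With succinylacetone it went from 139, 134, 134 and 129 CPM to 81.4, 73.5, 93.2 and 80.6 CPM, a fitted log2 fold change of -0.72 (SE 0.0492). The FLVCR2 siRNA libraries were close together, with an SD of 1.49 CPM around a mean of 112 CPM. Their mean lay under the control mean of 134 CPM in the other experiment, while the scrambled siRNA mean of 233 CPM lay above it.

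The fall at rank 3 was nearly equal in the experiments, with ratios of -0.63 and -0.64, from means of 14.1 and 15.8 CPM in the controls. The fall at rank 4 was the most unequal member. Its level was 56.3, 46.3, 47.7 and 49.1 CPM in control and 9.30, 9.71, 13.8 and 8.55 CPM with succinylacetone, a 4.82-fold lower mean. With the siRNA it went from 75.8, 83.4, 87.8 and 86.2 to 58.5, 62.1 and 64.9 CPM, a 1.35-fold lower mean. Both gaps were free of overlap, but the log2 ratios differed by 1.84.

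**Figure D2:**
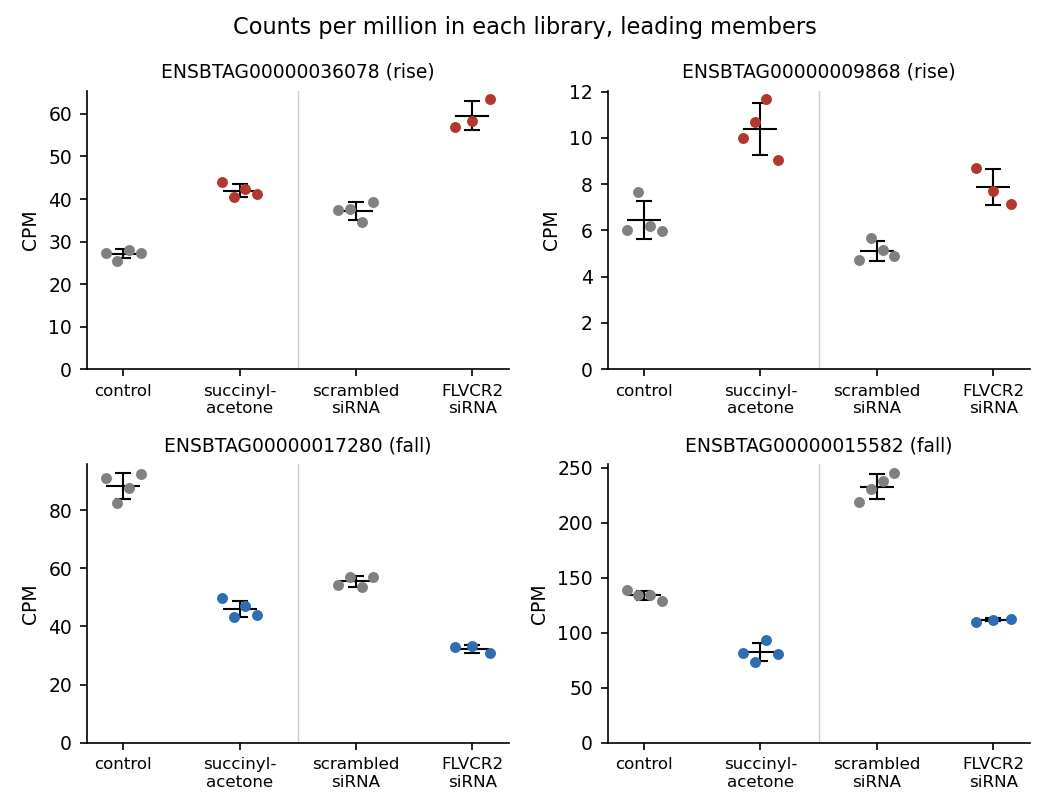
Points are single libraries of the 4 leading members, in CPM on an axis that starts at 0, and black bars give the mean and SD of each group (n = 4, and n = 3 for FLVCR2 siRNA). Each treated group lies apart from its own control group, and ENSBTAG00000015582 shows the widest siRNA gap, from 233 to 112 CPM.

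The sizes of the responses to the treatments were compared within each member. Succinylacetone gave the larger ratio in 43 of the 59 rises and 16 of the 22 falls, as it did in 6511 of all 9727 genes. The ratios lay within 0.1 of each other in 29 rises and 9 falls, and within 0.2 in 37 and 13. Over all 9727 genes the ratios lay that close in 3419 and 6085. The members' counts within 0.2 are near the share of all genes, and those within 0.1 are above it. The comparison is unlike, since most genes had ratios near 0. The median of the smaller ratio in size was 0.048 over all genes, 0.27 in the rises and 0.26 in the falls. Beside the fall at rank 4, the widest difference was in a rise at rank 42, with a ratio of 0.88 with succinylacetone and 0.23 with the siRNA. It went from 16.4, 13.7, 12.0 and 14.5 to 24.9, 28.5, 27.1 and 23.5 CPM in the first experiment, and from 16.6, 19.5, 19.2 and 21.0 to 22.2, 23.2 and 21.7 CPM in the second. Only a narrow gap, between 21.0 and 21.7 CPM, parted the siRNA groups of that gene. The opposite case was the rise at rank 15, with ratios of 0.37 and 0.73. Its siRNA libraries held 15.7, 18.4 and 18.9 CPM against 10.2, 11.5, 8.88 and 11.9 CPM in the scrambled ones. These differences between treatments were not tested, since the members were chosen on both ratios.

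**Figure D3:**
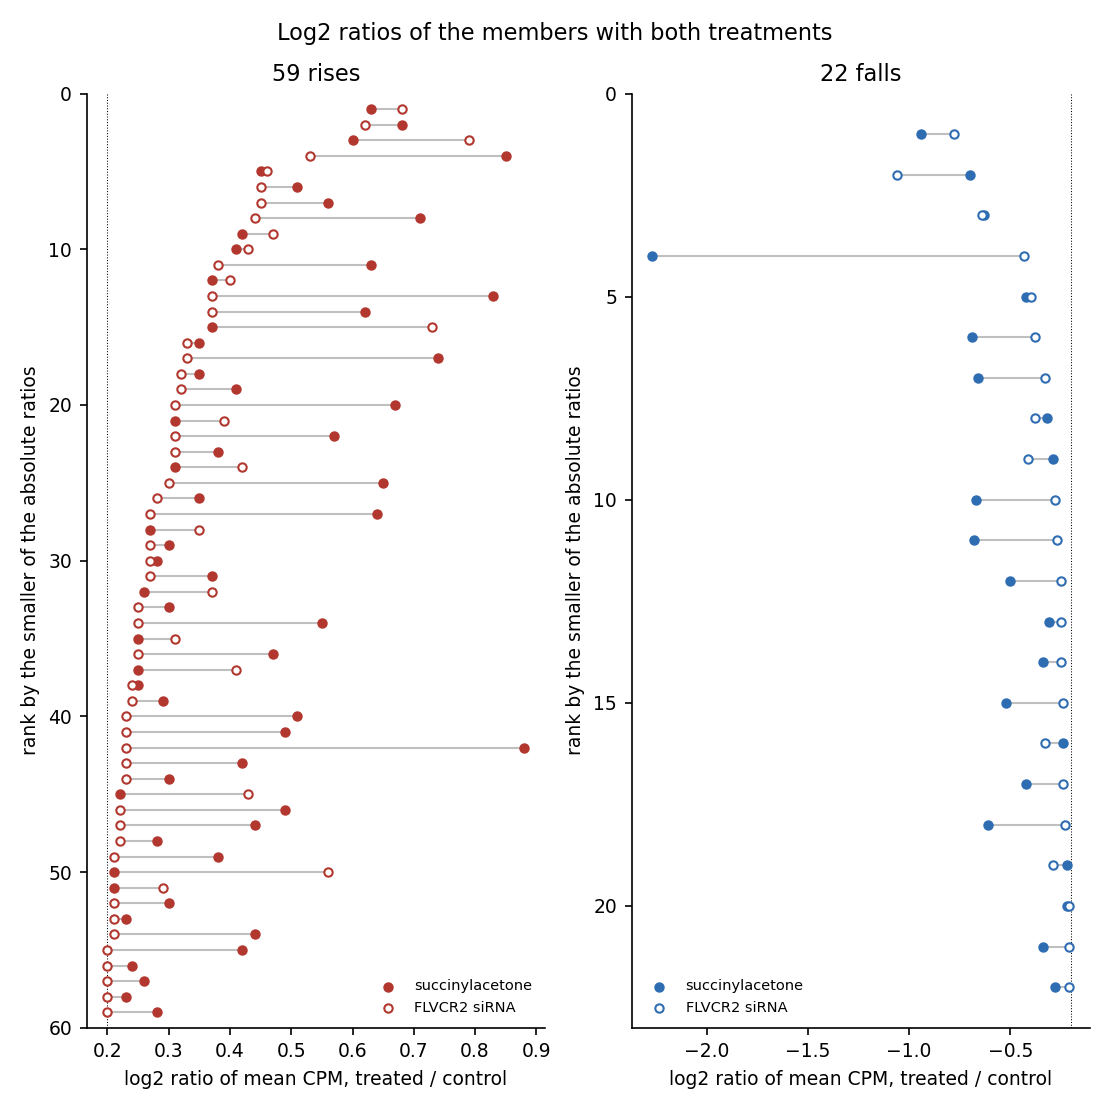
Filled points give the log2 ratio with succinylacetone and open points that with FLVCR2 siRNA for each of the 59 rises (left) and 22 falls (right), in order of the smaller ratio, and the dotted line is the limit of 0.2. After rank 24 of the rises the smaller ratio is under 0.3, and the fall at rank 4 has the longest line.

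The rise with the highest control level in the succinylacetone experiment, at rank 31, had 533 ± 29.0 CPM in control and 687 ± 20.6 CPM with succinylacetone (SD, n = 4 each) and from 422 ± 18 (SD, n = 4) to 507 ± 39.2 CPM with FLVCR2 siRNA (SD, n = 3). The most abundant fall, at rank 10, had 744, 789, 766 and 761 CPM in control and 527, 442, 506 and 452 CPM with succinylacetone. Its siRNA groups came close to each other: the scrambled libraries held 652, 718, 654 and 631 CPM, and the FLVCR2 siRNA libraries 630.3, 536 and 479 CPM. FLVCR2 siRNA replicate 1 thus lay just under the lowest scrambled library, and replicate 3 much lower.

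Many members entered by a narrow margin. The smaller ratio lay between 0.2 and 0.25 in 24 of the 59 rises and 10 of the 22 falls. The gap between the nearest treated and control libraries had a median of 1.14-fold for the rises with succinylacetone and 1.08-fold with the siRNA, and of 1.12-fold and 1.05-fold for the falls. The nearest libraries were less than 2% apart in 10 rises with succinylacetone and 5 with the siRNA, and in 4 falls with the siRNA. The last rise inside the limits had ratios of 0.28 and 0.20, and the first outside on the ratio alone had 0.29 and 0.199. For falls the last inside had -0.28 and -0.21 and the first outside -0.22 and -0.19. A further 59 rises and 27 falls passed the level and ratio limits but overlapped in at least 1 experiment. The largest of these had ratios of 0.40 and 0.55 among rises and -0.36 and -0.33 among falls.

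The level limit left out some strong shared changes. In 10 genes that rose and 13 that fell, the ratios and the separation met the limits but a group mean was under 5 CPM. The strongest rise of these with all means of at least 1 CPM went from 19.4 to 34.3 CPM with succinylacetone and from 4.13 to 17.5 CPM with FLVCR2 siRNA, ratios of 0.82 and 2.08. It was left out for its scrambled siRNA mean alone. The strongest such fall with all means of at least 1 CPM went from 5.31 to 3.37 and from 9.60 to 5.35 CPM, ratios of -0.66 and -0.84.

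The balance of rises and falls depended on the scaling. With library totals as the scale, 72.8% of the members were rises. With TMM factors, which correct the totals for the genes that take a large share of the counts, 45 rises and 31 falls met the limits, so that 59.2% were rises, and with DESeq2 size factors 46 and 30 did, or 60.5%. The TMM factors lay between 0.966 and 1.03. Of the 59 rises 43 were members under both other scalings, and of the 22 falls 21. The change of scale moved the median log2 ratio of all 9727 genes from 0.017 to 0.0045 with succinylacetone and from 0.011 to -0.003 with the siRNA. The leading 4 IDs kept their direction under each scaling, but their groups were further apart than such factors could shift them.

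Each whole table was also tested by edgeR's quasi-likelihood method, and genes were called when the p adjusted after Benjamini and Hochberg was under 0.05. With succinylacetone 56 of the 59 rises and 21 of the 22 falls were called, where 13.5% of all genes tested were called as rises and 15.9% as falls. With FLVCR2 siRNA 24 rises and 10 falls were called, where the shares over all genes were 1.35% and 0.432%. Both tests called 23 rises and 9 falls of the set, where 0.268% of all genes tested in both experiments were called as rises in both and 0.142% as falls in both. Since the limits used the same contrasts, nothing is read from these counts. They show only that 35 rises and 12 falls met the limits with the siRNA without an adjusted p under 0.05. Over all genes of the siRNA experiment, 231 were called in either direction (1.78%). This number was 84 when FLVCR2 siRNA replicate 2 was dropped and 150 when scrambled siRNA replicate 3 was.

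The members were then set beside the genes that met the limits with either treatment. With succinylacetone 989 genes rose (10.2% of the 9727) and 1090 fell (11.2%) by at least 0.2 without overlap, and with FLVCR2 siRNA 430 rose (4.42%) and 136 fell (1.4%). Without the ratio limit, the groups did not overlap in 14.8% (higher) and 15.2% (lower) of the genes with succinylacetone and in 8.93% and 3.54% with the siRNA. Both sets of limits were met by 200 genes, of which the 81 members moved alike, or 40.5%, and 119 in opposite directions. Of these 119, 95 fell with succinylacetone and rose with the siRNA. Of the genes raised by succinylacetone, 5.97% were raised by the siRNA, against 8.72% of those lowered by succinylacetone and 3.61% of those that met neither limit. Of the genes lowered by succinylacetone, 2.02% were lowered by the siRNA, against 2.43% of those raised and 1.18% of the rest. The 59 rises were 13.7% of the genes raised by the siRNA, and the 22 falls 16.2% of those it lowered. The shares in the opposite direction were larger: succinylacetone lowered 22.1% of the genes raised by the siRNA and raised 17.6% of those it lowered. Of the genes that met neither siRNA limit, succinylacetone raised 9.89% and lowered 10.6%. No test of these shares was made.

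All treated libraries had to lie past the controls in every member, which favours changes of like size among them. The medians of the members by library therefore describe the choice. The median log2 ratio of the rises to the control mean was 0.43, 0.33, 0.41 and 0.37 in succinylacetone replicates 1 to 4 and 0.31, 0.30 and 0.26 in FLVCR2 siRNA replicates 1 to 3. For the falls it was -0.43, -0.49, -0.42 and -0.49, and -0.29, -0.30 and -0.32. Over all 9727 genes these medians lay between -0.028 and 0.047 in the succinylacetone libraries and between -0.0059 and 0.03 in the siRNA libraries. Succinylacetone replicate 2, which had the lowest of these all-gene medians, was the treated library nearest the controls in 30 of the 59 rises. FLVCR2 siRNA replicate 3, which had the highest all-gene median of its group (0.03), was the nearest in 31 rises and 10 of the 22 falls. The part of the all-gene shift in the order of the libraries was not tested.

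**Figure D4:**
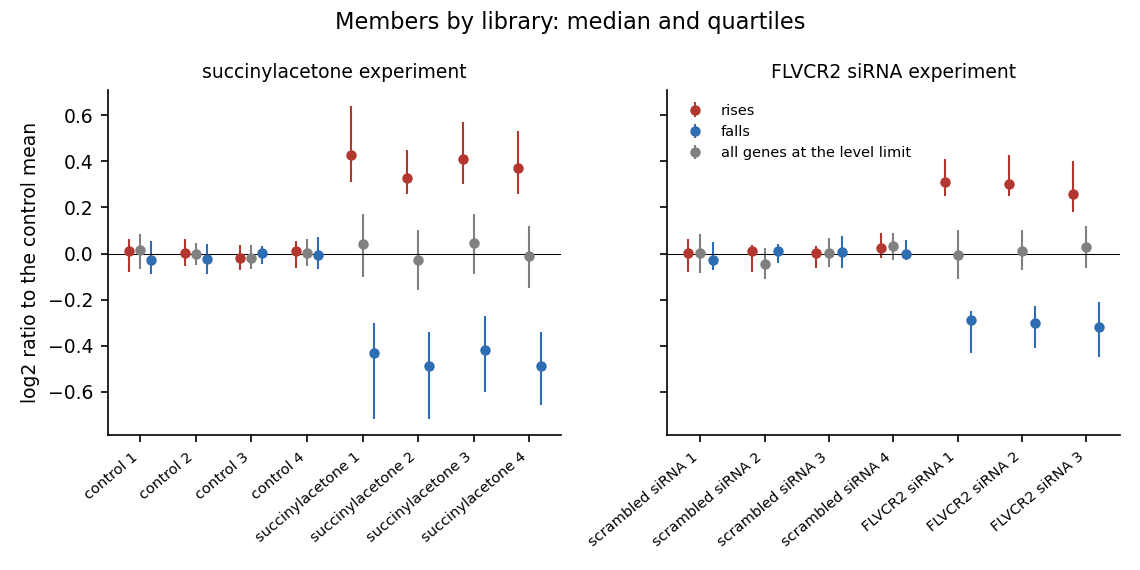
Points give, for each library, the median log2 ratio to the mean of its control group over the 59 rises (red), the 22 falls (blue) and all 9727 genes of at least 5 CPM (grey), and lines run from the lower to the upper quartile. The red medians of treated libraries lie between 0.26 and 0.43 and the blue between -0.49 and -0.29, while grey stays near 0.

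Each library was also left out of the choice in turn, so that its own values played no part in picking the genes. Without FLVCR2 siRNA replicate 1, 67 rises were chosen, and in 51 of them (76.1%) that library lay above every scrambled library. Without replicate 2 this held in 61 of 67 (91.0%), and without replicate 3 in 61 of 84 (72.6%). Over all genes whose mean was higher with the siRNA, the left-out library lay above every scrambled library in 32.0% to 36.9%. For falls the shares were 71.9%, 88.0% and 77.8%, of 32, 25 and 27 genes, against 20.7% to 32.7%. Leaving out a succinylacetone library gave shares between 85.7% and 100% for rises and between 88.0% and 100% for falls, against 42.2% to 66.7% and 44.5% to 66.7%. The genes compared by sign alone met no ratio or overlap limit, so a lower share among them is built into the choice. The controls and the other treated libraries still entered the choice. These shares are therefore not independent of it, and nothing is read from them. Genes chosen on the siRNA experiment alone gave 71.9%, 89.3% and 76.6% for rises in FLVCR2 siRNA replicates 1 to 3, near the shares of genes chosen on both treatments, and 58.3%, 71.3% and 42.1% for falls. Genes chosen on the succinylacetone experiment alone gave 81.1% to 96.1% for rises and 90.2% to 96.3% for falls in its treated libraries. With a control library left out, it lay past every treated library in 89.2% to 98.3% of rises and 91.7% to 95.7% of falls. Over all genes with that sign the shares were 52.1% to 59.6% and 50.5% to 63.9%. Genes chosen on the succinylacetone experiment alone gave 85.8% to 92.5% and 92.7% to 95.4%. With a scrambled library left out the shares of rises and falls were 84.4% to 88.4% and 63.6% to 92.0%, lowest for the falls in scrambled siRNA replicate 2. Over all genes with that sign they were 34.4% to 58.6% and 24.2% to 48.2%. Genes chosen on the siRNA experiment alone gave 80.7% to 89.6% and 53.1% to 78.7%.

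In the same settings 57 to 84 rises and 21 to 33 falls were found. With a library left out the overlap limit is easier to meet, which favours higher counts. Of the 59 rises 35, and of the 22 falls 12, were members whichever library was left out. Leaving a library out cannot make the groups of a member overlap, so members were lost only on the ratio or level limit. These counts therefore describe how near members lay to those limits.

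**Figure D5:**
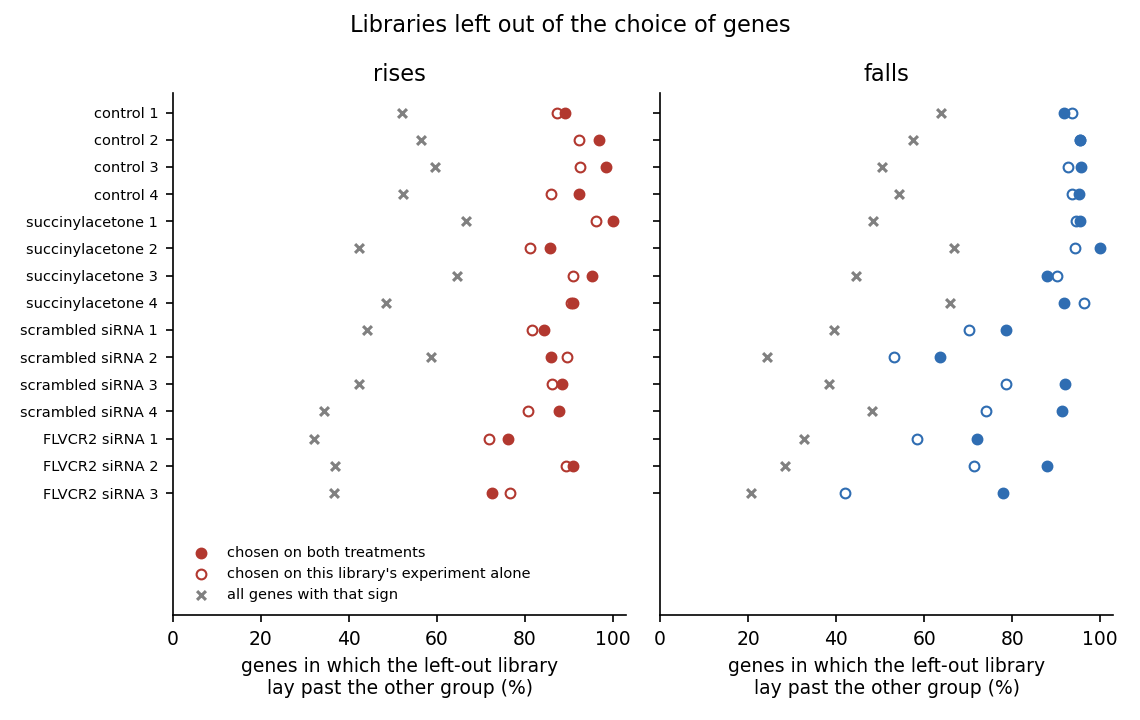
For each library left out (y axis), filled points give the percent of genes chosen without it on both treatments in which it lay past every library of the other group, open points the same for genes chosen on its experiment alone, and crosses for all genes with that sign of change. The filled points of the FLVCR2 siRNA libraries lie between 71.9% and 91.0%, to the right of the crosses, a gap that is built into the choice. The open points of these libraries lie between 42.1% and 89.3%.

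Levels in the control groups of the experiments were set side by side, although each control was used in its own experiment only, so that the siRNA reagent and the experiment cannot be told apart. The scrambled siRNA mean lay under the control mean in 37 of the 59 rises (62.7%) and in 6 of the 22 falls (27.3%), and in 42.6% of all 9727 genes. Both treated means lay above both control means in 44 rises, and both lay below in 12 falls. Over all 9727 genes the counts were 1346 and 782, and the limits on the members favour this order. In these 56 members the order of the groups did not depend on which control was used. In the remaining 15 rises and 10 falls at least 1 treated mean did not pass the control mean of the other experiment. ENSBTAG00000036078 kept the order: its control means of 27.1 and 37.2 CPM lay below its treated means of 42.0 and 59.6 CPM. The fall at rank 4 did not, since its FLVCR2 siRNA mean of 61.8 CPM lay above its control mean of 49.8 CPM.

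Libraries within a group were close for the members, with a median coefficient of variation of 6.84% in control, 5.75% with succinylacetone, 6.51% with scrambled siRNA and 5.70% with FLVCR2 siRNA for the rises. For the falls it was 6.79%, 7.48%, 6.20% and 5.22%. Over all 9727 genes it was 6.24%, 5.86%, 7.33% and 5.91%. The separation required of members removes genes with a wide spread, so these values describe the choice.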

How the data were processed

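The authors deposited raw counts, 1 table for each experiment. The tools featureCounts and DESeq2 and the builds hg38 and ARS-UCD1.2 are listed, per the submitters' processing notes, with no role or version. How strand was treated and which annotation was used is not given in the sources used here. Genes that overlap, lie antisense or are nearly identical can therefore have exchanged reads. Groups and replicate numbers came from the sample titles. The labels name no separate cultures, so p-values reflect the spread of these libraries, which may be technical. Pairs of replicates differed by more than sampling noise (chi-square per degree of freedom of 3.75 to 46.2 over genes with 20 or more counts in the pair, where 1 is noise), so each library was 1 sample.

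CPM was the count divided by the column total. The members and lists were chosen with earlier results of these data known. The rule for printing IDs was the first 2 of each direction by the smaller absolute log2 ratio. Other members given by rank, and the limits shown, lie outside it and were picked with their values in view. Whole tables were fitted in R 4.3.3 with edgeR 4.0.16 (TMM, filterByExpr, robust quasi-likelihood fit, each treatment with its own control). A standard error is the size of the log2 fold change over the root of its F value. The fits covered 12727 and 12976 genes and were tested on simulated data with 1 fixed spread for all genes of an experiment. In the succinylacetone and siRNA settings, 49.3% and 47.8% of genes changed 1.25-fold were called. For 1.5-fold changes the shares were 94% and 89.6%, for 2-fold changes 86.4% and 98.5%, and for unchanged genes 0.0798% and 0.0861%. Alternatives were DESeq2 1.42.0, other scalings, limits and filters, a joint fit of the 15 libraries, a replicate block and each library left out. Figures were drawn with matplotlib 3.10.9.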

Additional observations from a re-analysis of the deposited data

Results flagged for a closer look

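In ENSBTAG00000009868, control replicate 2 stood apart from the other control libraries at 7.67 CPM, where the others held 6.01, 6.20 and 5.98 CPM. The gap to its nearest neighbour was 0.874 of the range of the group. It lay below the lowest succinylacetone library, at 9.06 CPM. About 1 in 20 groups is marked by chance, and 42 sets of 4 values were looked at. Over all 81 members 16 of 243 such sets were marked, with no library marked more than 3 times.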

How the results depend on the processing

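The number of genes raised by both treatments was 126 with a ratio limit of 0.1, 24 with a limit of 0.3, 118 with overlap allowed and 24 with an edgeR adjusted p under 0.05 in place of no overlap. The number lowered by both was 49, 8, 49 and 11 under the same changes. Looser or stricter limits move these counts by construction. The level limit (1 or 10 CPM) and the scaling kept both counts within 1.5 times. With 1 library left out, which makes the overlap limit easier to meet, the rises ran from 57 to 84 and the falls from 21 to 33. The genes called over the whole table with succinylacetone ran from 2987 to 3658 with 1 library left out and from 3458 to 3866 in the other alternatives. With FLVCR2 siRNA they were 385 with no low-count filter and 391 with all 15 libraries in 1 fit, ran from 84 to 217 with 1 library left out, and the cause was not tested. Over the 5 models beside the reported one, 23 to 35 rises and 10 to 14 falls were called with the siRNA. The log2 fold changes of the 4 printed IDs kept their direction in all 84 alternative values, each within 1 SD of the reported one. This SD was the larger of those of log2 CPM within the treated and the control group. The IDs were chosen for groups that do not overlap, and leaving 1 library out moves a group mean by less than this SD. The outcome was therefore largely fixed by the choice and says little about stability. The replicate block gave 3837 called genes with succinylacetone and 277 with FLVCR2 siRNA. The labels do not say that a number was shared, and the deviations of same-numbered libraries correlated at -0.0154 to 0.0569 and -0.00321 to 0.0382, with 1 of 4 and 0 of 3 treated libraries correlating best with their own number. Depth was at least 90 counts for a rise and 100 for a fall in every library, which limits how well a ratio near 0.2 is known.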

Other observations

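The joint deviation of members within groups was described by mean correlations. The mean Pearson correlation between pairs of rises, of log2 CPM less the group mean over the 8 succinylacetone and control libraries, was 0.0824, and 0.0751 over all pairs of the 9727 genes. For pairs of falls it was 0.0603, and for a rise with a fall 0.0678. Over the 7 siRNA libraries it was 0.0257 for rises, -0.0304 for falls, 0.00561 for a rise with a fall and 0.0456 for all genes. No spread was computed for these small values, so the negative sign for the falls is not read as a difference. The genes of a pair share their libraries and depth, so these values are a description.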
